A study of Homo sapiens with 8 samples.

Results

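Interferon-stimulated effector genes, the antiviral and growth-restricting genes that cells switch on downstream of interferon receptors, were examined in A375 melanoma cells treated with TNF. A list of 44 effectors was matched by gene symbol to the 60710 genes of the count table. All 44 were found, and 39 of them were among the 16186 genes with enough counts to be tested. Nucleic acid sensors, interferon regulatory factors (IRFs), STAT factors and guanylate-binding proteins (GBPs) were not part of this list and are described only as its context.

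A375 is an established line of human metastatic melanoma cells. The cells were treated with 50 ng/mL human recombinant TNF for 24 hours (TNF), or left without TNF for the same 24 hours (NT), in 4 independent experiments. Both groups were parental A375 cells grown in the same serum-containing medium, and polyadenylated RNA of each culture was sequenced as its own library, giving 4 TNF and 4 NT libraries. Replicate numbers follow the experiment date in the sample titles, by which TNF replicate 1 and NT replicate 1 come from the same date. The separate counts of each NT sample carry the date of another NT library, so this pairing is uncertain. A single cell line, dose and time were measured, and a change in RNA per cell cannot be told apart from a change in the share of cells that express a gene.

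Type I and type III interferons act through JAK kinases on a complex of STAT and IRF transcription factors, which binds the interferon-stimulated response element (ISRE) in the promoters of effector genes. Interferon gamma acts through the gamma-activated site (GAS), and several IRFs bind ISRE-like sequences directly. The proteins encoded by the effector genes block translation of foreign RNA, degrade RNA, modify proteins with the ubiquitin-like ISG15, or hold back viral entry and release. TNF signals mainly through NF-kB, which binds kappaB sites.

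Total expected counts were 33317454 to 43125094 in TNF libraries and 30989787 to 44373296 in NT libraries. CPM denotes counts divided by library size after TMM scaling. All 5 NF-kB target genes used to check the treatment labels rose, with log2 fold changes between 3.03 and 7.90, and ICAM1 stood at 569 ± 45.8 CPM in TNF libraries and at 40.4 ± 4.53 CPM in NT libraries (SD, n = 4 each). Of 8 melanocytic markers, SOX10 was high (1177 against 1025 CPM, TNF and NT means), whereas the pigment gene TYR had 1 count over the TNF libraries and 0 over the NT libraries, and MLANA and PMEL stayed below 1 CPM in both groups. S100B was the only melanocytic marker past the test, and fell to 3.05 CPM in TNF libraries, against 17.3 CPM in NT libraries (log2 fold change -2.50, edgeR). Among genes of other cell types, the leukocyte markers PTPRC and CD3E had at most 5 counts over the libraries of a group. The summed leukocyte list, most of it CD68, was 43.9 to 77.3 CPM in TNF libraries and 27.2 to 34.1 CPM in NT libraries. The endothelial list was 8.25 to 10.7 against 5.13 to 6.25 CPM, the fibroblast list 3.88 to 8.44 against 4.35 to 9.10 CPM and the keratinocyte list 8.6 to 11.9 against 16.1 to 22.3 CPM (TNF against NT libraries). Members of these lists moved in both directions: CD68, PECAM1, KDR, DCN and KRT5 rose (log2 fold changes 1.26, 2.84, 0.58, 1.4 and 3.02), whereas LYZ and KRT14 fell (-0.90 and -1.12, edgeR). KRT5 had 223 counts over the TNF libraries and 29 over the NT libraries, and PECAM1 had 334 and 48. They had enough counts to be tested only through their TNF libraries, and their fold changes rest on low NT values. The part of these genes in the results was not tested. Ribosomal and other structural RNA took 0.416% of counts in TNF replicate 4, 0.518% in NT replicate 2 and 0.488% in NT replicate 4, and 0.0687% to 0.107% in the other 5 libraries.

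To show the sequences through which interferon signals are known to reach these genes, promoters were taken from RefSeq (GRCh38.p14), each running from 250 bases before to 50 bases after the start of the gene, and 36 of the 44 effectors had an entry. The promoters of the 4 called effectors with the largest change among those with an ISRE core are printed 5′ to 3′ on the strand of the gene, with matches to the ISRE core in capitals. The core was searched on both strands as GAAA, any 2 bases and GAAA, and reads TTTC, any 2 bases and TTTC where it lies on the other strand. IFI44 lies at chr1:78649539-78649838, ISG15 at chr1:1013247-1013546, IFIT1 at chr10:89392373-89392672 and IFIT3 at chr10:89327747-89328046, all on the plus strand.
IFI44: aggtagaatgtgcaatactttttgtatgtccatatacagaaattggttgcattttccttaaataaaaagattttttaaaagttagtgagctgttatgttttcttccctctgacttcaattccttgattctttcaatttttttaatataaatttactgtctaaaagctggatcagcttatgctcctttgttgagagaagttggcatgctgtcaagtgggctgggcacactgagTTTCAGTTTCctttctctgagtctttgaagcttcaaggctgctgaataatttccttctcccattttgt
ISG15: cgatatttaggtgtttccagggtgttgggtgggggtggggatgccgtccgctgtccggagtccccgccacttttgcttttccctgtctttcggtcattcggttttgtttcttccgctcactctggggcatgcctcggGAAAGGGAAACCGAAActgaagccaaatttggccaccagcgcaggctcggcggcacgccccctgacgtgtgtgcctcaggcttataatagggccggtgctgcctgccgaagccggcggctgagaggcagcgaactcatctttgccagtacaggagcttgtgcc
IFIT1: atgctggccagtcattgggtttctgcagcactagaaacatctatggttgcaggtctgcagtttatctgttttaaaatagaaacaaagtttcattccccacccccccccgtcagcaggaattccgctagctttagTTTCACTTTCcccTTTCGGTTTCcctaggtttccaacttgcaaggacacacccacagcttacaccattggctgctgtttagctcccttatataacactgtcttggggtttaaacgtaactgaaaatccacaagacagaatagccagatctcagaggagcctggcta
IFIT3: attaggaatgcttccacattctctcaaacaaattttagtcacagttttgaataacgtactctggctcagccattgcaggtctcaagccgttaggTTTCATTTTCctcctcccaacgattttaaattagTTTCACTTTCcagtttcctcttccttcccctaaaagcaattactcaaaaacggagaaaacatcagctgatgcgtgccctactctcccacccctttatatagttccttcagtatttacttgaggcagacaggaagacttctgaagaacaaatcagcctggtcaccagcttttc
The match in IFI44 begins 18 bases before the gene start. ISG15 has 2 overlapping matches, beginning 113 and 107 bases before its start. In IFIT1, the effector with the largest fall, matches begin 116 and 103 bases before the start, and in its neighbour IFIT3, which rose, 156 and 122 bases before.

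An ISRE core was found in 23 of the 36 effector promoters (63.9%), compared with 1255 of all 35116 promoters (3.57%). Among effectors with an entry, it was found in 9 of the 14 that rose with TNF (64.3%) and in 10 of the 15 that did not pass the test (66.7%), and of the 2 that fell it was present in IFIT1 and not found in the window of IFI16. A GAS (TTC, any 3 bases and GAA) was found in 8 effector promoters (22.2%, against 7.66% of all promoters). In BST2, EPSTI1, IFI27 and IFITM1 it overlapped an ISRE core. The kappaB motif was found in 5 effector promoters, those of BST2, IFITM3, MX1, OAS3 and XAF1 (13.9%, against 11.3% of all promoters). A match is a stretch of letters and not a measured binding site.

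Of the 39 effectors tested, 18 rose with TNF, 2 fell and 19 did not pass the test (edgeR's quasi-likelihood test, adjusted p under 0.05 over all genes tested). Thus 46.2% of the tested effectors rose, whereas 14.5% of all tested genes did, and 5.13% fell, whereas 9.9% of all tested genes did. The counts per role given below stand beside these same shares of all tested genes, and each rests on few genes. At an unadjusted p under 0.05 in the same edgeR fit, 20 were higher (19.5% of all tested genes were) and 3 lower (15.7% of all tested genes). The median log2 fold change of the tested effectors was 0.35, with a range of -1.14 (IFIT1) to 1.71 (IFI44), beside a median of -0.0035 over all tested genes. Of the 39 tested effectors, 5 passed with a log2 fold change above 1, namely IFI44, OASL, ISG15, HERC6 and TRIM22 (5.62% of all tested genes did so). With a log2 fold change below -1, 1 passed, IFIT1 (2.39% of all tested genes). OASL kept its call in 3 and TRIM22 in 2 of the 8 fits with 1 library left out. OASL also had enough counts to be tested through its TNF libraries. All 4 TNF libraries lay above all 4 NT libraries for 16 effectors (41.0%, against 15.6% of all tested genes) and below them for 2 (5.13%, against 11.7%), and the groups overlapped for 21. Compared within each experiment, 23 effectors were higher with TNF on all 4 dates (27.4% of all tested genes were) and 5 were lower on all 4 (25.9% of all tested genes).

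**Figure D1:**
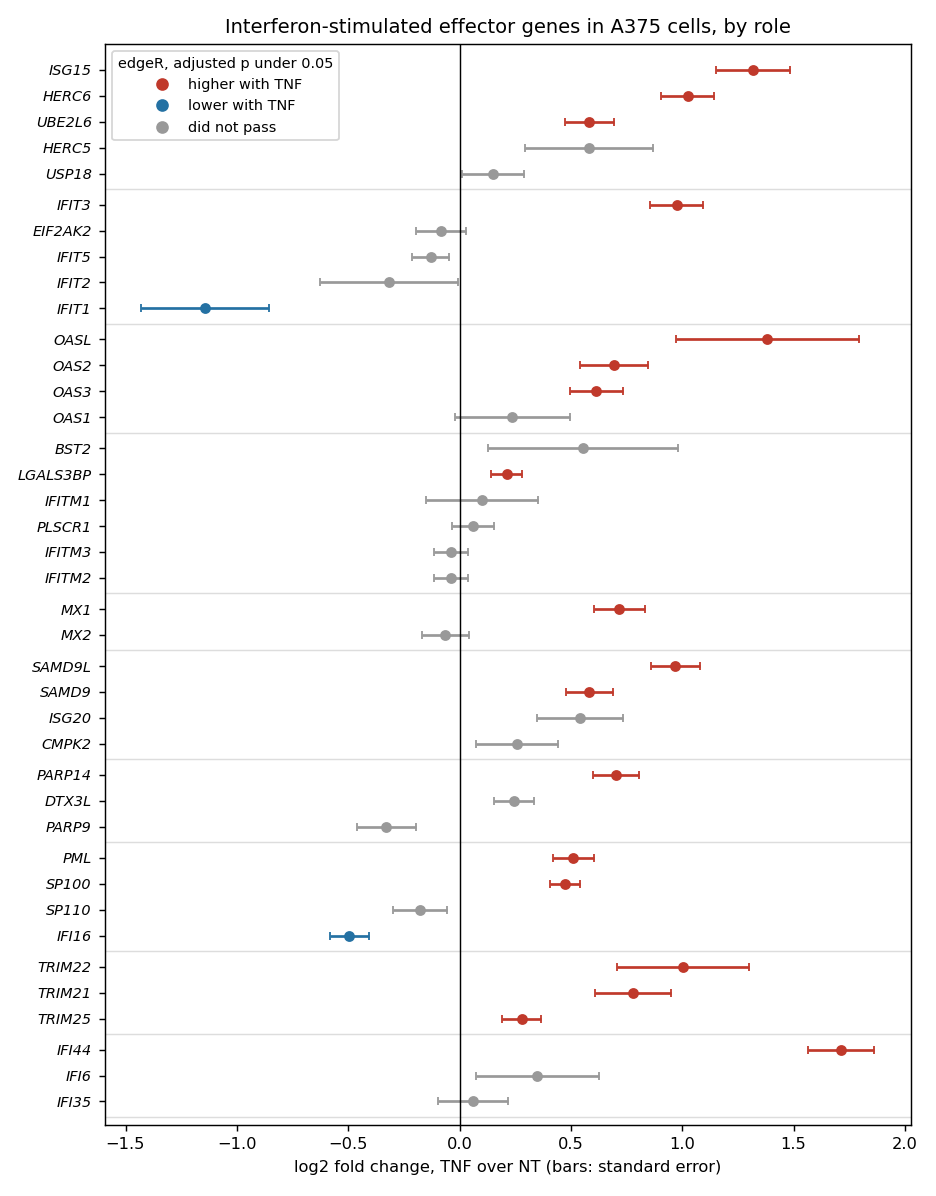
Log2 fold change of TNF over NT (x axis) for the 39 tested effectors (rows, grouped by role and ordered by size within a role), with bars for the standard error. Red points passed the test as higher with TNF, blue points as lower and grey points did not pass; IFI44 lies farthest to the right at 1.71 and IFIT1 farthest to the left at -1.14.

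The 5 genes of the ISG15 conjugation system comprise the modifier, its conjugating enzyme, a ligase, a related ligase-like protein and its protease, and 3 of them rose. ISG15, the ubiquitin-like modifier, had 10.1, 7.89, 7.76 and 8.54 CPM in TNF replicates 1 to 4, against 4.08, 3.44, 3.62 and 2.54 CPM in NT replicates 1 to 4. The lowest TNF library was well above the highest NT library, and the log2 fold change was 1.32 (SE 0.16, adjusted p = 0.000194, edgeR), or 2.49-fold. UBE2L6, the E2 enzyme that transfers ISG15, had 48.7, 54.5, 49.6 and 64.8 CPM in TNF libraries, against 42.0, 35.2, 34.4 and 33.6 CPM in NT libraries, without overlap (log2 fold change 0.58, SE 0.11, adjusted p = 0.00282, edgeR). HERC6, a HECT-domain protein that serves as the main ISG15 ligase in mice, had 10.2, 10.9, 9.17 and 10.5 CPM in TNF libraries, against 5.71, 4.92, 4.60 and 4.79 CPM in NT libraries. Its TNF libraries were close to each other and all clearly above NT (log2 fold change 1.02, SE 0.12, adjusted p = 0.000115, edgeR).

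HERC5, the main ISG15 ligase in human cells and the neighbour of HERC6 on chromosome 4, had 7.38, 4.91, 7.53 and 3.98 CPM in TNF libraries, against 5.92, 3.36, 4.15 and 2.41 CPM in NT libraries. The 2 groups overlapped, libraries of the same date were high or low together, and the TNF library was the higher one on each of the 4 dates. HERC5 did not pass the test (log2 fold change 0.58, SE 0.29, adjusted p = 0.182, edgeR) but did with the experiment date as a replicate block (0.60, adjusted p = 0.00334, edgeR). USP18, the protease that removes ISG15 and also restrains the type I interferon receptor, had 7.49, 5.47, 7.67 and 7.41 CPM in TNF libraries, against 5.79, 6.23, 7.11 and 6.16 CPM in NT libraries. TNF replicate 2 lay below all NT libraries, and USP18 did not pass (log2 fold change 0.15, SE 0.14, adjusted p = 0.497, edgeR).

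The IFIT proteins form complexes that recognise foreign RNA and block its translation, and their genes form a cluster on chromosome 10, where IFIT2, IFIT3, IFIT1 and IFIT5 lie in this order within positions 89283694 to 89421605 (GRCh38). Within this cluster 1 gene rose, 1 fell and 2 did not pass. IFIT3 had 22.5, 22.5, 24.1 and 24.0 CPM in TNF libraries, against 12.2, 12.9, 13.2 and 9.08 CPM in NT libraries, a 1.97-fold difference with no overlap (log2 fold change 0.97, SE 0.12, adjusted p = 0.000159, edgeR). IFIT1 had 1.61, 1.2, 2.11 and 0.841 CPM in TNF libraries, against 4.04, 2.95, 3.56 and 2.25 CPM in NT libraries. Its highest TNF library was below its lowest NT library, and the summed counts were 212 against 481 (log2 fold change -1.14, SE 0.29, adjusted p = 0.0146, edgeR). With any 1 library left out, the adjusted p of IFIT1 ranged from 0.00711 to 0.0496 in edgeR.

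IFIT2 had 2.07, 1.75, 3.5 and 1.39 CPM in TNF libraries, against 3.53, 2.76, 2.96 and 1.65 CPM in NT libraries, and was lower on 3 of the 4 dates without passing (log2 fold change -0.32, SE 0.31, adjusted p = 0.521, edgeR). Its exons share 524 bases with an unnamed gene on the same strand, so its counts are less certain, and IFIT3 shares 94 bases with LIPA on the opposite strand. IFIT5 was at 28.7 to 33.5 CPM in TNF libraries and 30.3 to 35.6 CPM in NT libraries (log2 fold change -0.13, adjusted p = 0.300, edgeR). EIF2AK2, which encodes PKR, the kinase that halts translation when it binds double-stranded RNA, was at 62.5 to 92.3 CPM in TNF libraries and 78.1 to 89.7 CPM in NT libraries (log2 fold change -0.08, adjusted p = 0.656, edgeR). The wide TNF range came from replicate 4, the lowest library, without which its log2 fold change was 0.020.

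The OAS enzymes make 2′-5′ oligoadenylates, second messengers of the antiviral response, and 3 of the 4 OAS genes rose. OAS3, the most abundant of them, had 137, 149, 154 and 205 CPM in TNF libraries, against 101, 97.6, 111 and 112 CPM in NT libraries. TNF replicate 4 was the highest and no TNF library reached down to the NT range (log2 fold change 0.61, SE 0.12, adjusted p = 0.00337, edgeR). OAS2, next to OAS3 on chromosome 12, had 8.58, 7.86, 8.45 and 6.92 CPM in TNF libraries, against 6.22, 4.51, 4.78 and 4.09 CPM in NT libraries (log2 fold change 0.69, SE 0.15, adjusted p = 0.00700, edgeR). OAS1, on the other side of OAS3, had 6.31, 5.10, 6.97 and 3.98 CPM in TNF libraries, against 5.51, 4.64, 6.2 and 2.63 CPM in NT libraries. It was higher with TNF on each date, yet the groups overlapped and it did not pass (log2 fold change 0.24, SE 0.26, adjusted p = 0.573, edgeR).

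OASL, an OAS-like protein without synthase activity that aids RIG-I signalling, was rare, with 0.631, 0.83, 0.394 and 0.518 CPM in TNF libraries, against 0.192, 0.410, 0.157 and 0.127 CPM in NT libraries. These are 82 counts over the TNF libraries and 33 over the NT libraries, and TNF replicate 3 lay just below NT replicate 2. OASL rose by the test (log2 fold change 1.38, SE 0.41, adjusted p = 0.0321, edgeR). The call did not hold without TNF replicate 1 (adjusted p = 0.0722), TNF replicate 2 (0.102), NT replicate 1 (0.0856), NT replicate 3 (0.0896) or NT replicate 4 (0.0786), all from edgeR.

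Of the 6 effectors that act at membranes or outside the cell, LGALS3BP alone passed the test. The IFITM proteins hold back viral fusion in endosomes and at the cell surface. IFITM3 had 183, 160.0, 166 and 175 CPM in TNF libraries, against 180.1, 182, 157 and 184 CPM in NT libraries, so that the groups overlapped over their whole range (log2 fold change -0.04, SE 0.08, adjusted p = 0.776, edgeR). IFITM2 was at 22.9 to 25.5 CPM in TNF libraries and 23.1 to 25.7 CPM in NT libraries, and IFITM1 at 1.69 to 2.70 CPM in TNF libraries and 1.35 to 2.93 CPM in NT libraries. Because the IFITM genes are related and reads may be split between them, their counts were also summed. The sum was 185 to 211 CPM in TNF libraries and 181 to 211 CPM in NT libraries (log2 fold change -0.04, SE 0.07, adjusted p = 0.783, edgeR).

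BST2, or tetherin, which retains budding virus particles at the cell surface, was rare in A375 cells (135 counts in TNF libraries, 100 in NT libraries) and higher with TNF on each date without passing (log2 fold change 0.55, SE 0.43, adjusted p = 0.404, edgeR). PLSCR1, a phospholipid scramblase, was at 20.5 to 23.6 CPM in TNF libraries and 18.1 to 22.8 CPM in NT libraries. LGALS3BP, a secreted glycoprotein that binds galectin-3, had 607, 609.9, 593 and 614 CPM in TNF libraries, against 541, 561, 509 and 483 CPM in NT libraries. The groups did not overlap but the difference was small, at 1.16-fold (log2 fold change 0.21, SE 0.07, adjusted p = 0.0480, edgeR), and with any 1 library left out the adjusted p was 0.0503 to 0.151 in edgeR. It did not pass with RLE factors (0.0583), upper-quartile factors (0.141) or library totals (0.20) in edgeR.

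The 2 MX genes, which encode dynamin-like GTPases that trap viral nucleocapsids, are neighbours on chromosome 21. MX1 had 14.6, 16.1, 16.6 and 17.0 CPM in TNF libraries, against 10.8, 10.2, 10.1 and 7.93 CPM in NT libraries, and rose 1.65-fold (log2 fold change 0.72, SE 0.11, adjusted p = 0.000991, edgeR). MX2 had 76.7, 88.7, 90.3 and 96.1 CPM in TNF libraries, against 77.3, 86.3, 100.4 and 104 CPM in NT libraries, with overlapping groups (log2 fold change -0.06, SE 0.11, adjusted p = 0.728, edgeR). The difference between these neighbours in their response was not tested.

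**Figure D2:**
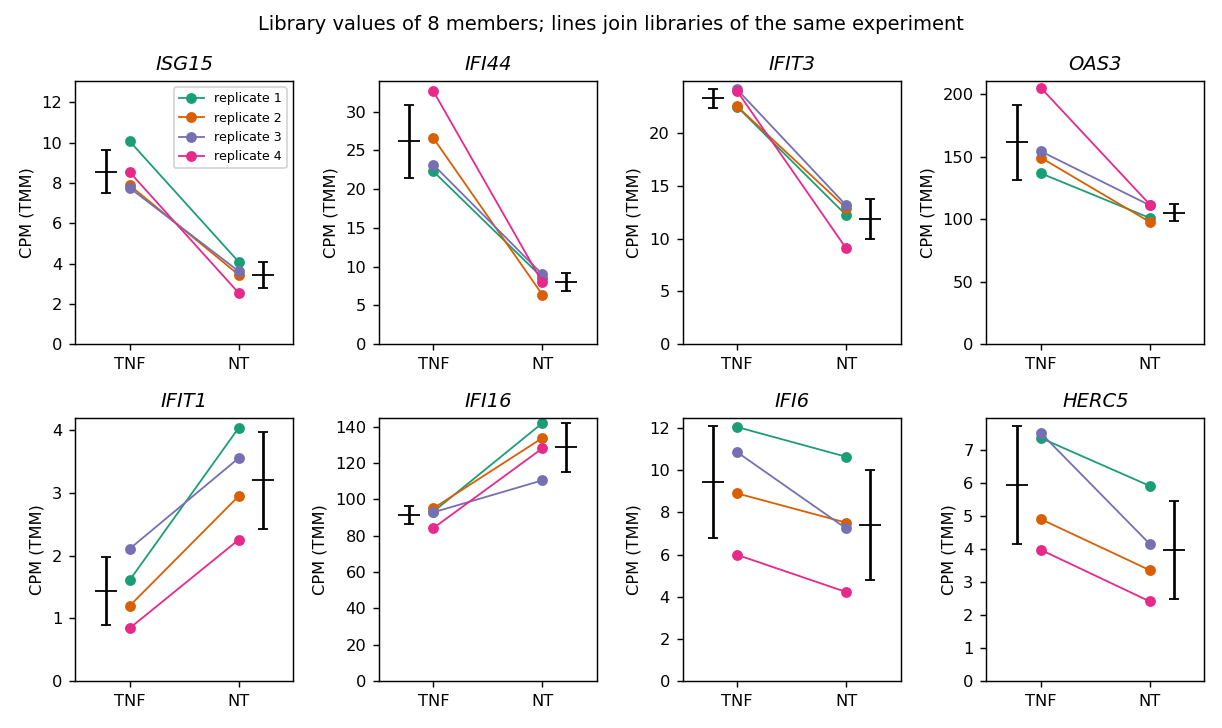
CPM (y axis, from 0) of 8 effectors in each library, TNF at left and NT at right of each panel, with lines joining libraries of the same experiment and bars for the mean and SD (n = 4). For ISG15, IFI44, IFIT3 and OAS3 all TNF libraries lie above the NT libraries, for IFIT1 and IFI16 all lie below, and for IFI6 and HERC5 the groups overlap while the TNF library is the higher one on each date.

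Among the genes of nucleotide and RNA metabolism, the paired genes SAMD9 and SAMD9L on chromosome 7, which encode translation-repressing antiviral factors, both rose. SAMD9L had 10.6, 11.9, 13.0 and 13.1 CPM in TNF libraries, against 6.48, 6.17, 6.04 and 6.09 CPM in NT libraries, where the NT values were nearly equal (log2 fold change 0.97, SE 0.11, adjusted p = 9.13e-05, edgeR). SAMD9 had 42.5, 47.8, 49.1 and 38.4 CPM in TNF libraries, against 33.2, 28.4, 31.4 and 25.7 CPM in NT libraries (log2 fold change 0.58, SE 0.11, adjusted p = 0.00235, edgeR). ISG20, a 3′-5′ exonuclease, had 57.6, 50.2, 51.5 and 52.2 CPM in TNF libraries, against 52.6, 36.6, 32.0 and 24.1 CPM in NT libraries. NT replicate 1 reached the TNF range, and ISG20 did not pass (log2 fold change 0.54, SE 0.19, adjusted p = 0.0680, edgeR), although it did without that library (0.77, adjusted p = 0.00288, edgeR) and with the replicate block (0.59, adjusted p = 0.0331, edgeR).

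CMPK2, a mitochondrial nucleotide kinase, was at 3.72 to 4.51 CPM in TNF libraries and 2.59 to 4.41 CPM in NT libraries and did not pass (log2 fold change 0.26, adjusted p = 0.363, edgeR). RSAD2, or viperin, which turns CTP into a chain-terminating nucleotide, had 12 counts over the TNF libraries and 14 over the NT libraries and was not tested. Both genes share 351 bases on opposite strands.

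PARP9, DTX3L and PARP14 lie in the same region of chromosome 3, and their proteins act in ADP-ribosylation. PARP14 had 33.9, 37.1, 40.0 and 31.9 CPM in TNF libraries, against 24.6, 23.1, 20.7 and 19.4 CPM in NT libraries, and rose 1.63-fold without overlap (log2 fold change 0.70, SE 0.10, adjusted p = 0.000553, edgeR). PARP9 and its partner, the ubiquitin ligase DTX3L, are transcribed away from a shared start region in which they overlap by 139 bases. DTX3L had 45.0, 41.5, 46.3 and 42.9 CPM in TNF libraries, against 38.0, 41.6, 37.1 and 31.6 CPM in NT libraries (log2 fold change 0.24, SE 0.09, adjusted p = 0.0735, edgeR). PARP9 had 10.9, 11.5, 12 and 9.06 CPM in TNF libraries, against 15.5, 14.8, 13.3 and 11 CPM in NT libraries, and was lower on each date (log2 fold change -0.33, SE 0.13, adjusted p = 0.103, edgeR). Neither passed, whereas with the replicate block DTX3L was higher (adjusted p = 0.0199, edgeR) and PARP9 lower (adjusted p = 0.0107, edgeR). Without NT replicate 2 DTX3L passed as higher (adjusted p = 0.0487, edgeR), and without NT replicate 4 PARP9 passed as lower (adjusted p = 0.0351, edgeR).

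PML and SP100 encode the main scaffold proteins of PML nuclear bodies, where foreign DNA genomes are silenced, and both rose. PML had 152, 148, 139.7 and 185 CPM in TNF libraries, against 112, 100.3, 116 and 110.1 CPM in NT libraries (log2 fold change 0.51, SE 0.09, adjusted p = 0.00248, edgeR). SP100 had 42.4, 45.4, 41.6 and 40.4 CPM in TNF libraries, against 29.8, 31.2, 30.7 and 30.4 CPM in NT libraries, with little spread in either group (log2 fold change 0.47, SE 0.07, adjusted p = 0.000461, edgeR). SP110, a relative of SP100 in the same region of chromosome 2, was lower on each date, at 12.9 to 16.5 CPM in TNF libraries and 13.3 to 18.5 CPM in NT libraries, and did not pass (log2 fold change -0.18, SE 0.12, adjusted p = 0.343, edgeR).

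IFI16, a nuclear DNA sensor, was the second effector to fall. It had 93.1, 95, 92.8 and 84.1 CPM in TNF libraries, against 142, 134, 110.4 and 128 CPM in NT libraries. The 4 TNF libraries were tightly grouped and each was below the lowest NT library, replicate 3 (log2 fold change -0.49, SE 0.09, adjusted p = 0.00174, edgeR). At this level IFI16 was measured with 12945 counts in TNF libraries and 19080 in NT libraries, far more than IFIT1.

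All 3 TRIM ubiquitin ligases rose, although TRIM25 did not with upper-quartile factors (adjusted p = 0.0560, edgeR) or library totals (adjusted p = 0.0646, edgeR). TRIM21, a cytosolic antibody receptor, had 7.84, 9.27, 8.43 and 12.2 CPM in TNF libraries, against 4.68, 4.81, 6.11 and 6.44 CPM in NT libraries (log2 fold change 0.78, SE 0.17, adjusted p = 0.00721, edgeR). TRIM25, which takes part in RIG-I activation and can itself be modified by ISG15, had 164, 196, 163 and 195 CPM in TNF libraries, against 133, 152, 150.5 and 156 CPM in NT libraries, a 1.21-fold difference (log2 fold change 0.28, SE 0.09, adjusted p = 0.0399, edgeR). TRIM22, which restricts several viruses, had 0.976, 0.491, 0.857 and 0.906 CPM in TNF libraries, against 0.513, 0.382, 0.346 and 0.349 CPM in NT libraries, from 115 and 60 counts (log2 fold change 1.00, SE 0.30, adjusted p = 0.0310, edgeR). TNF replicate 2 was its lowest TNF library and lay below NT replicate 1.

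The calls of TRIM25 and TRIM22 were lost in most fits with 1 library left out. Their log2 fold changes in these fits ranged from 0.23 to 0.32 (TRIM25) and from 0.89 to 1.17 (TRIM22). TRIM25 kept its call in edgeR without TNF replicate 1 or TNF replicate 3 and lost it without TNF replicate 2 (adjusted p = 0.112), TNF replicate 4 (0.0584), NT replicate 1 (0.109), NT replicate 2 (0.0791), NT replicate 3 (0.0844) or NT replicate 4 (0.0533). TRIM22 kept its call in edgeR without TNF replicate 2 or NT replicate 1 and lost it without TNF replicate 1 (adjusted p = 0.0887), TNF replicate 3 (0.0727), TNF replicate 4 (0.0584), NT replicate 2 (0.0820), NT replicate 3 (0.0841) or NT replicate 4 (0.0763). TRIM21 passed with any library left out.

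Of the 7 remaining effectors, 3 were tested and 1 rose. IFI44, a cytoplasmic protein that slows cell proliferation, had 22.3, 26.6, 23.2 and 32.6 CPM in TNF libraries, against 8.57, 6.37, 9.0 and 7.97 CPM in NT libraries. It had the largest rise of the tested effectors, 3.28-fold, with the lowest TNF library far above the highest NT library (log2 fold change 1.71, SE 0.15, adjusted p = 1.66e-05, edgeR). OASL ranked above IFI44 without NT replicate 2 (log2 fold change 1.84 for OASL, 1.62 for IFI44). It also did without the 3 libraries rich in ribosomal and other structural RNA (1.77 for OASL, 1.45 for IFI44). The values of OASL rest on 82 counts over all TNF libraries and 33 over all NT libraries. IFI6, a mitochondrial protein that counters apoptosis, had 12.1, 8.90, 10.9 and 5.99 CPM in TNF libraries, against 10.6, 7.51, 7.24 and 4.22 CPM in NT libraries. As for HERC5, libraries of a group were spread more widely than the group means differed, and IFI6 passed only with the replicate block (log2 fold change 0.35, SE 0.28, adjusted p = 0.420 without it and 0.0143 with it, edgeR). IFI35 was at 14.8 to 21.0 CPM in TNF libraries and 13.8 to 22.3 CPM in NT libraries (log2 fold change 0.06, adjusted p = 0.828, edgeR).

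The other 4 effectors of this group had too few counts to be tested. XAF1, a proapoptotic antagonist of XIAP, had 41 counts over the TNF libraries (0.488, 0.215, 0.301 and 0.129 CPM) and 10 over the NT libraries (0.0855, 0.0820, 0.0629 and 0.0317 CPM), so that each TNF library was above each NT library. When no filter on low counts was used it passed as higher (log2 fold change 2.01, SE 0.63, adjusted p = 0.0304, edgeR). IFI44L, the neighbour of IFI44 on chromosome 1, had 48 counts in TNF libraries and 29 in NT libraries, far fewer than the 3652 and 1171 of IFI44, and did not pass without the filter (adjusted p = 0.407, edgeR). IFI27 had 4 counts in TNF libraries and 5 in NT libraries, and EPSTI1 had 4 in TNF libraries and 2 in NT libraries.

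Effector levels also differed between experiments. The median effector deviated from its NT mean by 0.47, 0.38, 0.44 and 0.23 log2 units in TNF replicates 1 to 4. In NT replicates 1 to 4 it deviated by 0.12, 0.03, 0.03 and -0.13. The same median over all tested genes stayed within 0.01 in every library. TMM scaling holds that median near 0, so it is no measure of how other sets of 39 genes vary, and none was compared. NT replicate 4 was the lowest NT library for 20 of the 39 tested effectors and TNF replicate 4 the lowest TNF library for 15. For 10 effectors (HERC5, IFIT1, IFIT2, OAS1, OAS2, SAMD9, PARP9, PARP14, SP110 and IFI6) replicate 4 was lowest in both groups. The share of all tested genes with these patterns was not counted. Over all 16186 tested genes, libraries of a date also deviated together, most in replicate 4 (correlation 0.46). Whether the pattern is particular to the effectors was therefore not tested. For the 18 effectors that rose, in contrast, the median deviation was largest in TNF replicate 4, at 0.90, against 0.61, 0.71 and 0.78 in TNF replicates 1 to 3. Both libraries of replicate 4 were among the 3 with more ribosomal and other structural RNA. Without both libraries of that experiment 14 effectors rose and 3 fell (15.2% and 11.5% of all genes in that fit). When the 3 libraries rich in ribosomal and other structural RNA were left out, 16 rose and 2 fell (12.8% and 8.33% of all genes). The 16 include XAF1, which is not one of the 39 and had enough counts in that fit only through its TNF libraries. Both fits used edgeR.

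**Figure D3:**
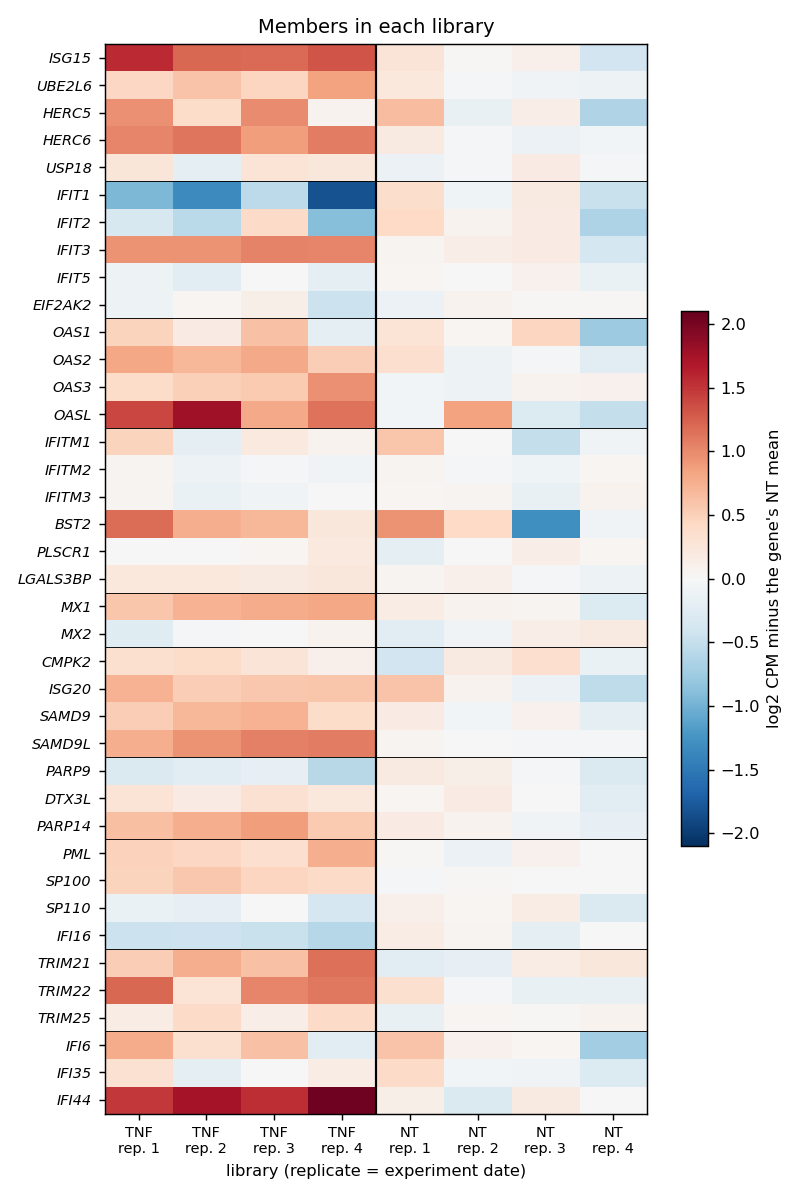
Log2 CPM minus the NT mean of each gene (color) for the 39 tested effectors (rows, grouped by role) in the 4 TNF libraries (left) and 4 NT libraries (right). ISG15, HERC6, IFIT3, OASL, SAMD9L and IFI44 are red in every TNF library, IFIT1 and IFI16 are blue in every TNF library, and HERC5, OAS1 and IFI6 are lowest in replicate 4 of both groups.

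CPM was divided by the length of merged exons to order the effectors by level per length. Merged exons join all annotated transcripts of a gene, and ran from 867 bases in ISG15 to 18045 bases in OAS3. The order therefore depends on annotated length as well as on abundance, and genes with long merged exons may be placed too low. LGALS3BP was highest (177 ± 2.62 CPM per kb in TNF libraries, 153 ± 10.1 in NT libraries; SD, n = 4 each), followed by IFITM3 (60.2 ± 3.55 in TNF libraries, 61.8 ± 4.41 in NT libraries). UBE2L6 ranked 3 in TNF libraries (26.4 ± 3.58 CPM per kb, against 17.6 ± 1.87 in NT libraries) and IFI16 ranked 3 in NT libraries (17.2 ± 0.917 CPM per kb in TNF libraries, against 24.3 ± 2.52 in NT libraries). These leading ranks were far apart, whereas ISG15 and IFI44, at ranks 10 and 7 in TNF libraries, stood next to each other at ranks 18 and 19 in NT libraries with levels that did not differ beyond their spread (3.95 ± 0.746 and 3.91 ± 0.566 CPM per kb). OASL (0.0938 ± 0.0293 in TNF libraries, 0.0351 ± 0.0203 in NT libraries) and TRIM22 (0.0643 ± 0.0172 in TNF libraries, 0.0317 ± 0.00626 in NT libraries) were the lowest of the tested effectors in both groups and overlapped each other in both.

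**Figure D4:**
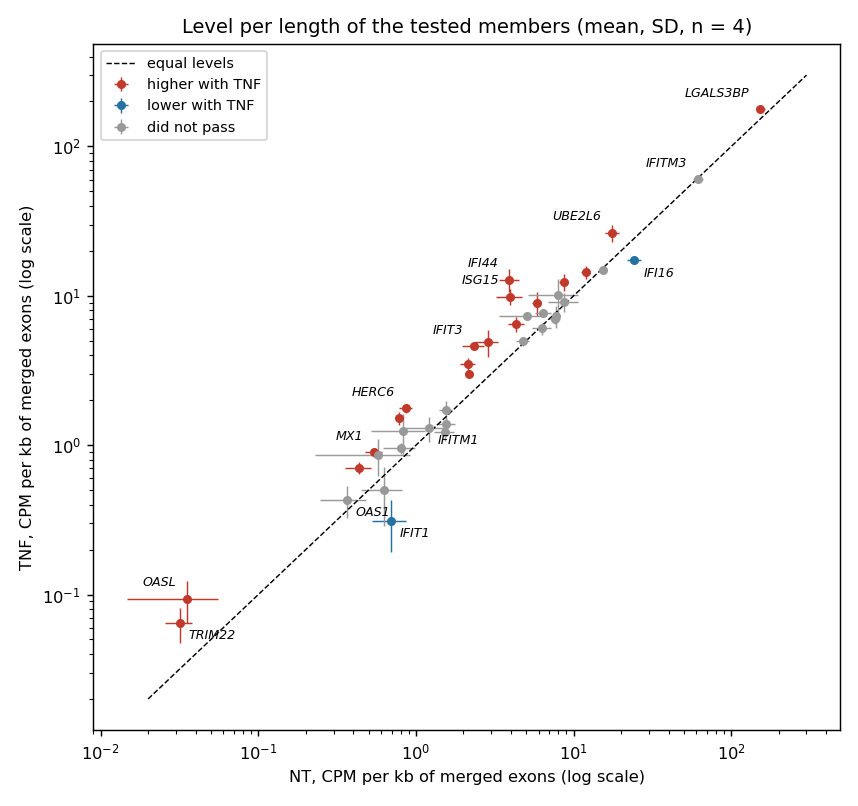
Mean level per length of the 39 tested effectors in TNF libraries (y axis) against NT libraries (x axis), both in CPM per kb of merged exons on log scales, with bars for the SD (n = 4) and a dashed line of equal levels. Points of genes that rose (red) lie above the line from TRIM22 at the low end to LGALS3BP at the high end, and IFIT1 and IFI16 (blue) lie below it.

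To place the effectors in their pathway, 63 other genes of interferon production, signalling and response were examined, of which 46 were tested. Of these, 24 rose (52.2%, against 14.5% of all tested genes), 0 fell (against 9.9%) and 22 did not pass (edgeR). Their median log2 fold change was 0.42, beside -0.0035 over all tested genes. The counts per pathway list given below stand beside these same shares. At an unadjusted p under 0.05, 29 were higher (19.5% of all tested genes were) and 0 lower (15.7% of all tested genes) in edgeR. DESeq2 and limma voom also called 0 lower (12.2% and 10.1% of all tested genes). With the replicate block 29 rose and 3 fell (ZC3HAV1, NLRX1 and GBP2, named after their values were seen), where 21.3% and 18.2% of all genes did. Without TNF replicate 1 GBP2 fell (8.15% of all genes in that fit did). None of the 14 interferon genes had enough counts to be tested. IFNB1, which encodes interferon beta, was among 9 of them with 0 counts in all 8 libraries, which allows up to 0.0212 CPM in TNF libraries and 0.0204 CPM in NT libraries at a floor of 3 counts per group. IFNE, an epithelial interferon, had 30 counts over the TNF libraries and 6 over the NT libraries, and passed as higher when no filter was used (log2 fold change 2.27, adjusted p = 0.0313, edgeR).

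Of the 6 receptor chains, 4 rose, namely IFNLR1 (log2 fold change 0.91, SE 0.16), IFNAR2 (0.88, SE 0.12), IFNGR2 (0.81, SE 0.08) and IFNAR1 (0.43, SE 0.07), with adjusted p between 3.06e-05 and 0.00225 in edgeR. Of the 12 JAK, STAT and IRF genes, 6 rose. IRF1, which binds ISRE-like sequences, had 41.8, 55.6, 50.8 and 66.7 CPM in TNF libraries, against 11.2, 13.8, 13.6 and 15.1 CPM in NT libraries (log2 fold change 2.0, SE 0.15, adjusted p = 5.46e-06, edgeR), and IRF7, IRF9 and IRF2 had log2 fold changes of 1.22, 0.87 and 0.76. STAT2, itself interferon-stimulated, did not pass (log2 fold change -0.01, SE 0.26, adjusted p = 0.984, edgeR). Its values were 21.8, 23.0, 26.8 and 10.4 CPM in TNF libraries, against 21.9, 25.3, 20.9 and 14.5 CPM in NT libraries, lowest in replicate 4 of both groups like the 10 effectors above.

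Of 9 nucleic acid sensors and adaptors tested, 6 rose, with log2 fold changes of 3.30 for RIGI (SE 0.38), 1.99 for IFIH1 (SE 0.17), 1.17 for TICAM1 (SE 0.08) and 0.76 for DHX58 (SE 0.21). RIGI, the RNA sensor RIG-I, had 13.5, 14.5, 13.8 and 16.0 CPM in TNF libraries, against 2.12, 0.382, 2.23 and 1.08 CPM in NT libraries, above every tested effector in log2 fold change. GBP4 had a larger log2 fold change than RIGI without NT replicate 2 (3.14 for GBP4, 2.98 for RIGI), NT replicate 4 (3.35 and 3.18) or both libraries of the fourth experiment (3.15 and 3.13). It also did without the 3 libraries rich in ribosomal and other structural RNA (4.03 and 2.68). However, GBP4 had 139 counts over the TNF libraries and 19 over the NT libraries. It was thus tested only through its level in TNF, and its fold change rests on NT values near the floor. Among 9 negative regulators, NLRC5 (0.51), which also drives HLA class I transcription, and the phosphatase genes PTPN2 (0.35) and PTPN1 (0.22) rose. Of 4 GBP genes tested, GBP4 (2.91, SE 0.54) and GBP1 (0.47, SE 0.14) rose. Of 6 further genes of conjugation and RNA decay, 3 rose, among them UBA7, the E1 enzyme for ISG15 (1.68, SE 0.19), and APOBEC3G (1.38, SE 0.12). UBA7 thus rose along with ISG15 and UBE2L6, the modifier and the E2 enzyme. 

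Of the pathway genes named, 5 lost their call in edgeR when single libraries were left out. NLRC5 lost it without TNF replicate 1 (adjusted p = 0.0518). DHX58 lost it without TNF replicate 1 (0.0772), NT replicate 2 (0.0777), NT replicate 3 (0.0707) or NT replicate 4 (0.0584), and PTPN2 without TNF replicate 2 (0.0559), NT replicate 1 (0.0699) or NT replicate 2 (0.0732). PTPN1 kept it only without TNF replicate 1 or TNF replicate 4 (0.0553 to 0.0789 without each of the others) and GBP1 only without NT replicate 1 or NT replicate 4 (0.0509 to 0.0992 without each of the others). PTPN1 and GBP1 did not pass with upper-quartile factors or library totals either (adjusted p between 0.0520 and 0.0779, edgeR). Nor did they without the filter on low counts (adjusted p = 0.119 for PTPN1 and 0.0581 for GBP1, edgeR).

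**Figure D5:**
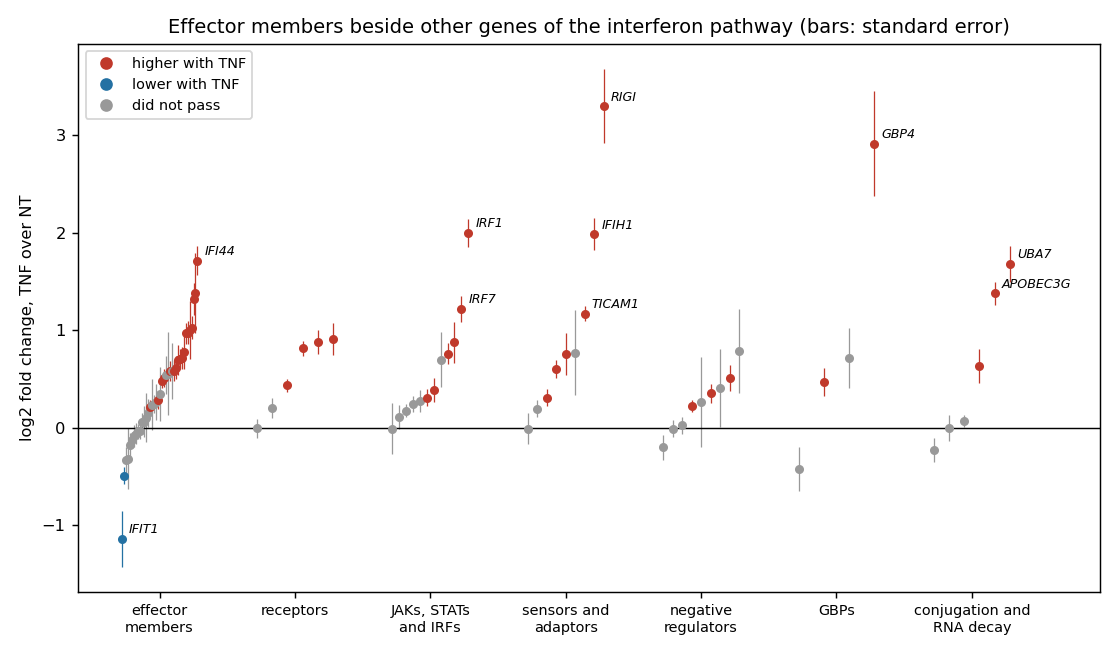
Log2 fold change of TNF over NT (y axis, bars for the standard error) for the 39 tested effectors at left and the 46 tested genes of the other pathway lists in the columns to the right; red points rose, blue points fell and grey points did not pass. RIGI at 3.30 and GBP4 at 2.91 lie above IFI44, the highest effector at 1.71, and the 2 blue points belong to the effectors. GBP4 rests on 139 counts over the TNF libraries and 19 over the NT libraries.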

How the data were processed

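RNA sequencing of 4 TNF and 4 NT libraries of A375 cells was analysed. The authors aligned reads with Bowtie2 to GRCh38 and deposited unnormalized expected counts from RSEM 1.2.25, per the labels. No version of Bowtie2 and no use of strand in counting is given in the sources used here, so genes that overlap on opposite strands are uncertain. The table of the whole series was used, because its column names match the sample titles, whereas each NT sample's own file carries the date of another NT library.

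Expected counts were rounded to whole numbers (a change of 0.000138% of the total), filtered by edgeR (minimum count 10, total 15), scaled by TMM and compared by the robust quasi-likelihood test of edgeR 4.0.16, with treatment as its term, in R 4.3.3, with Benjamini-Hochberg adjustment over 16186 genes and a threshold of 0.05. Log2 CPM used a prior count of 2. The fit was tested on simulated data. Positions and lengths come from GENCODE on GRCh38.

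Replicate numbers pair libraries by the date in the sample titles. Because the NT dates conflict as described above, comparisons within a date, the date block and statements on single experiments depend on these titles. Libraries of a date deviated together from their group means (correlations of 0.35, 0.17, 0.24 and 0.46 over 16186 genes in replicates 1 to 4), and 1 alternative had the date as a block. Other alternatives were no filter, a minimum of 10 counts per library, scaling by library totals, RLE or upper-quartile factors, the tools DESeq2 1.42.0 and limma voom 3.58.1, and libraries left out.

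The effectors, pathway lists and tests were chosen with earlier results of these data known. Named genes are all effectors, up to 4 genes with the largest called change in each pathway list, 5 NF-kB targets and cell type markers. STAT2, IFNB1 and IFNE were named after their values were seen. Some genes of the lists are not reported here.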

Additional observations from a re-analysis of the deposited data

Results flagged for a closer look

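Each tested effector was screened in each group of 4 libraries for a library that stood apart from the other 3 by Dixon's criterion, and 2 of 78 such groups were marked, where 3.9 are marked by chance. USP18 in TNF replicate 2 stood at 2.46 log2 CPM, below the other TNF libraries at 2.90 to 2.95. IFITM3 in NT replicate 3 stood at 7.29 log2 CPM, below the other NT libraries at 7.49 to 7.52. Neither gene passed the test, and neither passed with any 1 library left out.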

How the results depend on the processing

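The 18 effectors that rose and the 2 that fell were compared over 18 alternatives. Of the 18, 14 passed under each alternative, as did IFIT1 and IFI16, and 4 (OASL, LGALS3BP, TRIM22 and TRIM25) lost their call under at least 1. The number that rose ranged from 14 to 22 and the number that fell from 2 to 3. The largest number came with the replicate block, which uses the pairing by date and adds HERC5, DTX3L, ISG20 and IFI6 to the effectors that rose and PARP9 to those that fell (21.3% of all genes rose and 18.2% fell with it). It changed no other effector call. Over all genes the replicate block called 3451 higher and 2946 lower, and library totals called 1925 higher and 2514 lower, against 2345 and 1603 in the main test. Upper-quartile factors called 2045 higher and 2196 lower. Library totals and upper-quartile factors moved the median log2 fold change of all genes to -0.09 and -0.06, and that of the effectors to 0.27 and 0.29. Pathway genes that fell numbered 3 with the replicate block and 0 to 1 with single libraries left out.

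Signs changed for 5 effectors that did not pass. With single libraries left out, EIF2AK2 ranged from -0.16 to 0.020, IFITM1 from -0.045 to 0.35, IFITM3 from -0.088 to -0.0085, PLSCR1 from -1.29e-05 to 0.11 and IFI35 from -0.034 to 0.22 in log2 fold change. Without the fourth experiment EIF2AK2 was at 0.024 and IFI35 at -0.061. Without the 3 libraries with more ribosomal and other structural RNA, EIF2AK2 was at 0.072, IFITM3 at 0.0093 and IFI35 at -0.13. With library totals PLSCR1 was at -0.023 and IFI35 at -0.025. The cause was not tested. Depth limits RSAD2, IFI27, EPSTI1, IFI44L and XAF1, which had at most 48 counts in a group, and p-values rest on 4 experiments with 1 cell line.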
